A study of Mus musculus with 4 samples.

Results

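The genes described here are 10 non-immunoglobulin genes of IgA secretion and of plasma cell recruitment and survival, out of 57186 genes counted. They were chosen by symbol, and 9 of the 10 are listed in the deposited TPM table (a level per gene length). Tnfrsf17 is absent from that table because its total count of 28 lies below the table's lowest total of 51. RNA was sequenced from whole mouse uterus on gestational day 4, with 2 libraries per group. The control group was wild type. The knockout group, Prss29Cre/Cre;Pgrf/f (Pgr gecKO), carried Cre at both copies of Prss29, a locus transcribed in uterine glands, and floxed Pgr, the progesterone receptor gene. The question is how these genes are transcribed in a uterus whose glands are meant to lack this receptor. The effects of Pgr loss, of Cre and of the altered Prss29 locus cannot be told apart in this design. The sources used here give neither strain nor age, nor whether each library came from a single animal, so p-values measure only the spread between these libraries, which may be technical.

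IgA is the main antibody of mucosal secretions. Plasma cells in the tissue below an epithelium assemble IgA into polymers with the joining chain, and the epithelial polymeric immunoglobulin receptor carries these polymers through the cell into the lumen. The chemokine CCL28, made by mucosal epithelia, attracts plasma cells that bear its receptor CCR10. BAFF and APRIL, ligands of the TNF family, keep B cells and plasma cells alive, the latter through the receptor BCMA. The uterus is such a mucosal site, and sex steroids are known to influence its IgA.

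The promoters shown are those of the 4 genes with the smallest p among the 9 of the set that could be tested. They are given so that the start regions of a plasma cell gene that was lower (Jchain), of 2 epithelial genes that were higher (Pigr and Ccl28) and of a secretory pathway gene (Derl3) can be set side by side. Each is the run of 250 bases before the gene start from RefSeq, build GRCm38.p6, which differs from the build GRCm39 of the counts, written 5′ to 3′ on the strand of the gene. Capitals mark matches to the motifs described after the sequences.
Jchain, chr5:88527898-88528147, minus strand: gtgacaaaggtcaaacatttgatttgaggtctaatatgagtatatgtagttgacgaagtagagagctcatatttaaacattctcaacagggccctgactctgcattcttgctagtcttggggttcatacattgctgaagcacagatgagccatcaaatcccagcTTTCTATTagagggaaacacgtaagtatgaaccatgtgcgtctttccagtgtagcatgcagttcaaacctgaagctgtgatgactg
Pigr, chr1:130826434-130826683, plus strand: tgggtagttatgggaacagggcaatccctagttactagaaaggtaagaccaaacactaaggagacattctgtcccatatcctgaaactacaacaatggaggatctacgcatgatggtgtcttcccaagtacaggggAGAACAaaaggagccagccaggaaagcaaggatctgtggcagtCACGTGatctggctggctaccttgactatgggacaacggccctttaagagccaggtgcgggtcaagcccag
Ccl28, chr13:119623569-119623818, plus strand: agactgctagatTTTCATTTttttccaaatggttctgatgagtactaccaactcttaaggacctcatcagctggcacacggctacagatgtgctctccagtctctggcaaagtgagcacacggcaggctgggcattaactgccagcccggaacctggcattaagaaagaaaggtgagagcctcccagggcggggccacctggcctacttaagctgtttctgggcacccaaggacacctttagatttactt
Derl3, chr10:75893148-75893397, plus strand: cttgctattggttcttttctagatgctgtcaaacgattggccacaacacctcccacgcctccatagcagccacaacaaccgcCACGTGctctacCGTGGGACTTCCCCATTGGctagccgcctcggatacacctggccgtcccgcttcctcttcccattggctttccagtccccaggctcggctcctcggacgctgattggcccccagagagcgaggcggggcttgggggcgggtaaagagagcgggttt

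Both strands of windows of 300 bases, 250 before and 50 after the gene start, were searched for 4 motifs, and a promoter was found for 8 of the 10 genes, all but Ccr10 and Mzb1. The endoplasmic reticulum stress element, CCAAT and CCACG with 9 bases of any kind between them, which is bound by factors of the unfolded protein response, matched in 0.119% of all 32851 promoter windows. Derl3 held it, 156 bases upstream on the reverse strand. The E-box CACGTG was present in 7.15% of all windows, and in those of Derl3, 168 bases upstream, and Pigr, 71 bases upstream. The half-site AGAACA, the core of the element shared by progesterone and glucocorticoid receptors, was present in 19% of all windows and in 1 of the 8, that of Pigr, 114 bases upstream. The interferon regulatory factor core AANNGAAA was present in 23.9% of all windows and in 5 of the 8. It lay 86 bases upstream in Jchain, 238 bases upstream in Ccl28 and 101 bases upstream in Tnfrsf17. In Pigr it lay 8 bases after the start, outside the run printed, and Tnfsf13b was the last of the 5. Tnfsf13b had 2 windows, and a gene was counted if any of its windows matched, while the background shares are per window. The matches are a description of letters and not of binding.

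Total counts ran from 29932153 to 35149834 per library. Pgr itself stood at 140.5 and 138.6 CPM (counts per library size after TMM scaling) in the controls and at 130.1 and 146.2 CPM in the knockouts. Since stroma and muscle transcribe Pgr too, this count is no check of its loss from glands. Counts of Prss29 were 1524 and 190 in controls 1 and 2, against 0 in each knockout library. The smooth muscle list summed to 8245 and 2650 TPM in controls 1 and 2 and to 6906 and 10183 TPM in the knockouts, the lowest sum being that of control 2. Across all 20950 genes tested with edgeR's quasi-likelihood test, 0.00477% (1 gene) passed an adjusted p of 0.05, and 630 had an unadjusted p under 0.05.

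None of the 9 genes tested passed an adjusted p of 0.05 in edgeR, or in limma-voom. At an unadjusted p under 0.05, 1 of the 9 was lower in the knockout (Jchain), against 1.79% of all genes tested, and 2 were higher (Pigr and Ccl28), against 1.22%. With DESeq2 1 gene of the set, Jchain, passed the adjusted threshold, against 0.206% of all genes called lower and 0.197% called higher. In 4 of the 9 both knockout libraries lay below both controls in CPM, against 13.1% of all genes. In 3 they lay above both controls, against 12.2%, but on the TPM scale the groups overlapped for Ccr10, which is among the 3. The median log2 fold change (knockout over control) was −0.16 over the 9, and 0.0063 over all genes tested.

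**Figure D1:**
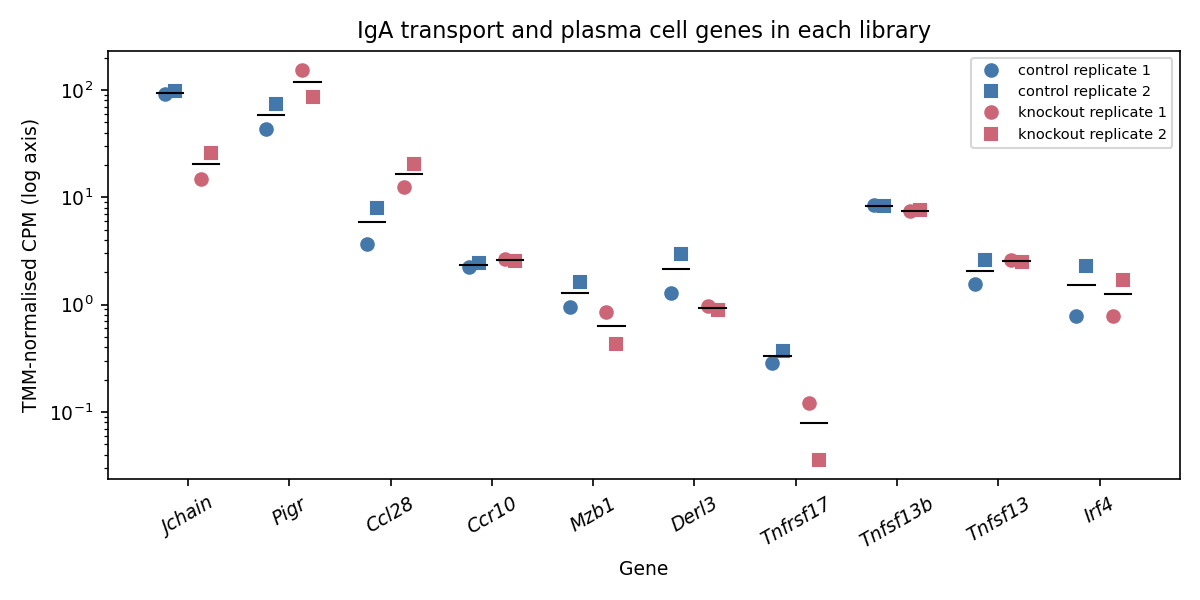
Level of each of the 10 genes in each library, in TMM-normalised CPM on a log axis; circles are replicate 1, squares are replicate 2, and the short lines are group means. Jchain lies at 91.6 and 97.4 CPM in the controls and at 14.8 and 25.8 CPM in the knockouts, while Pigr and Ccl28 lie higher in the knockouts.

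Jchain (ENSMUSG00000067149) encodes the joining chain, which links IgA and IgM into polymers and is needed for their binding by the polymeric immunoglobulin receptor. It was at 91.6 and 97.4 CPM in controls 1 and 2 and at 14.8 and 25.8 CPM in knockouts 1 and 2. Both knockout libraries lay far below both controls, and the controls differed little from each other. The group means were 94.5 ± 4.05 and 20.3 ± 7.75 CPM (SD, n = 2), 4.66 times higher in the controls. The log2 fold change was −2.22 (SE 0.30, 95% interval −2.95 to −1.49), with adjusted p = 0.216 in edgeR's quasi-likelihood test over all genes. The adjusted p was 3.84e-07 in DESeq2 and 1.45e-03 in edgeR with no filter on low counts, and over all alternatives it ran from 3.84e-07 to 0.261. It was 0.0463 without control 1, 0.0552 without control 2, 0.0382 without knockout 1 and 0.0126 without knockout 2, so the call depends on the setting. The log2 fold change itself stayed between −2.67 and −1.87. In bulk tissue, fewer cells of a type and less RNA per cell cannot be told apart, here and for every gene below.

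Among immunoglobulin genes, those of the IgA heavy chain and the kappa light chain were lower in both knockouts, and that of the IgM heavy chain overlapped. Igha, the constant region of the IgA heavy chain, was at 327.5 and 355.5 CPM in the controls and 52.7 and 44.6 CPM in the knockouts, and Igkc, the kappa light chain constant region, at 110.8 and 104.9 CPM and at 19.98 and 19.78 CPM. The adjusted p was 0.0613 for both in edgeR. Ighm, the constant region of IgM, was at 7.54 and 10.9 CPM in the controls and at 11.2 and 7.27 CPM in the knockouts, which overlap. Within each library the TPM of Jchain was 0.175 and 0.196 of that of Igkc in the controls and 0.157 and 0.275 of it in the knockouts. The groups overlap in that ratio.

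Mzb1 and Derl3 serve antibody folding in the endoplasmic reticulum. Mzb1 is a chaperone of B cells and plasma cells that helps to attach the joining chain to IgA, and Derl3 belongs to the machinery that removes misfolded proteins. Derl3 (ENSMUSG00000009092) was at 1.30 and 2.96 CPM in controls 1 and 2 and at 0.967 and 0.891 CPM in the knockouts. Both knockout libraries lay below both controls, but the controls lay further from each other than control 1 lay from the knockouts. Its log2 fold change was −1.19 (95% interval −2.56 to 0.17), with an unadjusted p of 0.0771 in edgeR. The log2 fold change was −1.65 (unadjusted p = 0.0395) without control 1 and −0.48 (unadjusted p = 0.568) without control 2.

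Mzb1 (ENSMUSG00000024353) was at 0.950 and 1.62 CPM in the controls and at 0.846 and 0.428 CPM in the knockouts. The lower control and the higher knockout nearly met. Its log2 fold change was −1.003 (95% interval −2.47 to 0.46), and it was −0.57 without control 2 and −0.60 without knockout 2. Counts were low, 90 over both controls and 40 over both knockouts, a ratio of normalised counts of 1.97 with a 95% counting interval of 1.34 to 2.93, which covers counting error only. In GENCODE M21 Mzb1 shares 695 exon bases with Spata24 on the same strand, so reads there could have been counted for either gene or left out.

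Tnfrsf17 (ENSMUSG00000022496) encodes BCMA, the receptor through which APRIL and BAFF sustain plasma cells. Controls 1 and 2 gave 10 and 13 counts, and knockouts 1 and 2 gave 4 and 1. Both knockouts lay below both controls at this very low level. Normalised counts were 4.03 times higher in the controls, with a 95% exact binomial counting interval of 1.497 to 13.6. That interval covers counting error only and not the spread between libraries. The gene did not pass the low-count filter. With no filter its unadjusted p in edgeR was 0.0823 and its adjusted p 0.999.

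Pigr (ENSMUSG00000026417), the polymeric immunoglobulin receptor gene of secretory epithelium, differed in the other direction from Jchain, the gene whose product its protein carries. It was at 43.1 and 73.8 CPM in controls 1 and 2 and at 152.6 and 86.3 CPM in knockouts 1 and 2. Both knockouts lay above both controls, with knockout 2 close to control 2. The group means were 58.4 ± 21.7 and 119.4 ± 46.9 CPM (SD, n = 2), and the log2 fold change was 1.03 (SE 0.37, 95% interval 0.16 to 1.91). Its unadjusted p in edgeR was 0.0272 and its adjusted p 0.99998. The unadjusted p was 0.117 without control 1 and 0.119 without knockout 1, where the log2 fold change was 0.71 and 0.56, and 1.47 without control 2.

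Ccl28 (ENSMUSG00000074715), the epithelial chemokine that draws IgA plasma cells, was at 3.68 and 7.98 CPM in controls 1 and 2 and at 12.3 and 20.6 CPM in knockouts 1 and 2. Both knockouts lay above both controls, and the replicates of each group were well apart. The group means were 5.83 ± 3.04 and 16.5 ± 5.85 CPM (SD, n = 2), and the log2 fold change was 1.496 (SE 0.46, 95% interval 0.40 to 2.60). The unadjusted p was 0.0150 and the adjusted p 0.99998 in edgeR, and the adjusted p was 0.176 in DESeq2. Without control 1 and without knockout 2 the unadjusted p was 0.0520 and 0.0530, and the log2 fold change was 1.06 and 1.08.

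Ccr10 (ENSMUSG00000044052), the receptor for CCL28 on IgA plasma cells and some T cells, was at 2.22 and 2.45 CPM in the controls and at 2.66 and 2.53 CPM in the knockouts. The knockouts lay above the controls by less than the width of the interval of the fold change, which was 0.15 on the log2 scale (95% interval −0.82 to 1.13). On the TPM scale Ccr10 was at 4.11 and 4.55 in the controls and at 5.09 and 4.20 in the knockouts, and the groups overlap. Whether its fold change differs from that of its ligand was not tested.

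**Figure D2:**
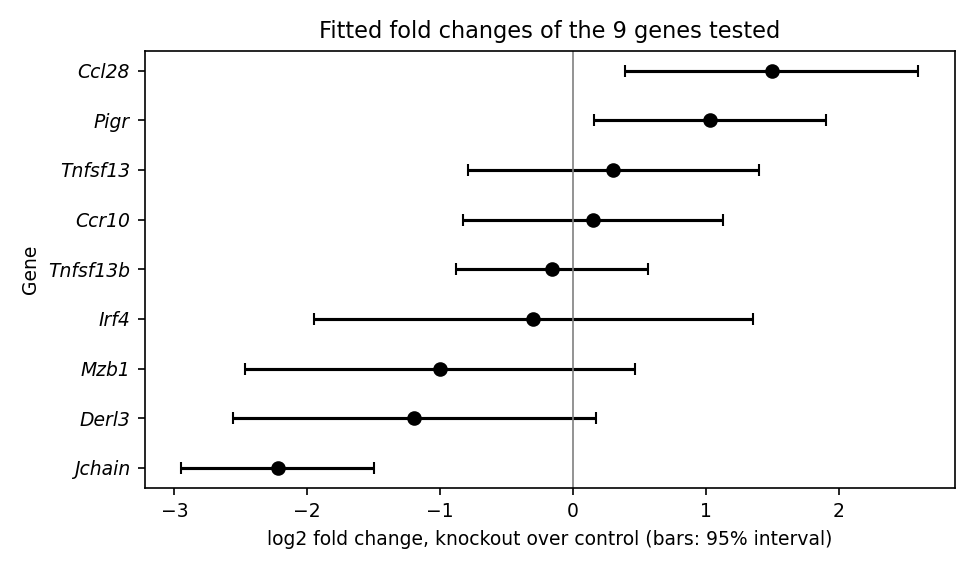
Fitted log2 fold change, knockout over control, of the 9 genes tested, with bars for the 95% interval (n = 2 libraries per group). The intervals of Jchain (−2.95 to −1.49), Pigr (0.16 to 1.91) and Ccl28 (0.40 to 2.60) leave out 0, and the other 6 include it.

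The intervals of both survival ligands included 0. Tnfsf13b (ENSMUSG00000031497), which encodes BAFF, was at 8.46 and 8.21 CPM in the controls and at 7.41 and 7.56 CPM in the knockouts. The groups did not overlap, but the log2 fold change was only −0.16 (95% interval −0.88 to 0.57). Tnfsf13 (ENSMUSG00000089669), which encodes APRIL, was at 1.55 and 2.59 CPM in the controls and at 2.63 and 2.50 CPM in the knockouts, and the groups overlap. Its log2 fold change was 0.30 (95% interval −0.79 to 1.40), and it was −0.0033 without control 1. Tnfsf13 shares 983 exon bases with the readthrough gene Tnfsfm13 on its own strand and 221 with an antisense gene, so its counts are uncertain.

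Irf4 (ENSMUSG00000021356), a transcription factor needed for plasma cell formation and also made by some macrophages, dendritic cells and T cells, was at 0.777 and 2.28 CPM in the controls and at 0.786 and 1.71 CPM in the knockouts. Replicate 2 was the higher one in both groups, and the groups overlap. Its log2 fold change was −0.30 (95% interval −1.95 to 1.35), and it was 0.68 without control 2 and 0.16 without knockout 1, so its direction depends on the library left out.

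On the TPM scale, which allows levels of different genes to be compared, Jchain was the highest of the 9 listed genes in the controls, with a mean of 120.3 TPM, and Pigr the next, with 46.5 TPM. In the knockouts Pigr was the highest, with 93.3 TPM, and Jchain came next, with 24.4 TPM. In neither group did the ranges of these 2 genes overlap. Ccr10, Tnfsf13, Tnfsf13b, Ccl28, Derl3 and Mzb1 followed in the controls, with means from 4.33 down to 3.39 TPM, and each overlapped the next in that order. In the knockouts Ccl28 came next after Pigr and Jchain, with 10.3 TPM, and its range lay apart from those of its neighbours. Irf4 was the lowest in both groups, with 0.999 TPM in the controls and 0.765 TPM in the knockouts.

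Ratios within a library set Jchain, Mzb1 and Derl3 against a leukocyte list, and Pigr and Ccl28 against an epithelium list. The leukocyte list holds general leukocyte markers and no plasma cell marker. The leukocyte list, whose 8 genes are all in the TPM table, summed to 248.9 and 323.0 TPM in the controls and 246.5 and 181.6 TPM in the knockouts. Per 1000 TPM of this list, Jchain was at 468.1 and 384.1 TPM in the controls and at 78.9 and 161.4 TPM in the knockouts. The groups stayed apart, with both knockouts low. On the same scale Mzb1 was at 10.1 and 13.3 TPM and at 9.34 and 5.55 TPM, and Derl3 at 8.36 and 14.8 TPM and at 6.51 and 7.05 TPM. The knockouts were again the lower ones, by less than the gap between the controls for Mzb1 in knockout 1 and for Derl3.

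The epithelium list of 10 genes, among them the adhesion genes Epcam and Cdh1, summed to 2828 and 4009 TPM in the controls and to 3582 and 3225 TPM in the knockouts, which overlap. None of its 10 genes had an unadjusted p under 0.05, and 5 had a log2 fold change below 0 and 5 above. In 3 of the 10 both knockouts lay below both controls, against 13.1% of all genes tested, and in none above, against 12.2%. Epcam was at 181.2 and 173.1 CPM in the controls and at 143.2 and 147.6 CPM in the knockouts. Cdh1 was at 447.7 and 416.1 CPM and at 332.7 and 341.3 CPM. Per 1000 TPM of this list Pigr was at 12.1 and 14.7 TPM in the controls and at 34.99 and 19.03 TPM in the knockouts, and Ccl28 at 0.861 and 1.32 TPM and at 2.35 and 3.78 TPM. In both ratios the 2 knockouts lay above the 2 controls.

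**Figure D3:**
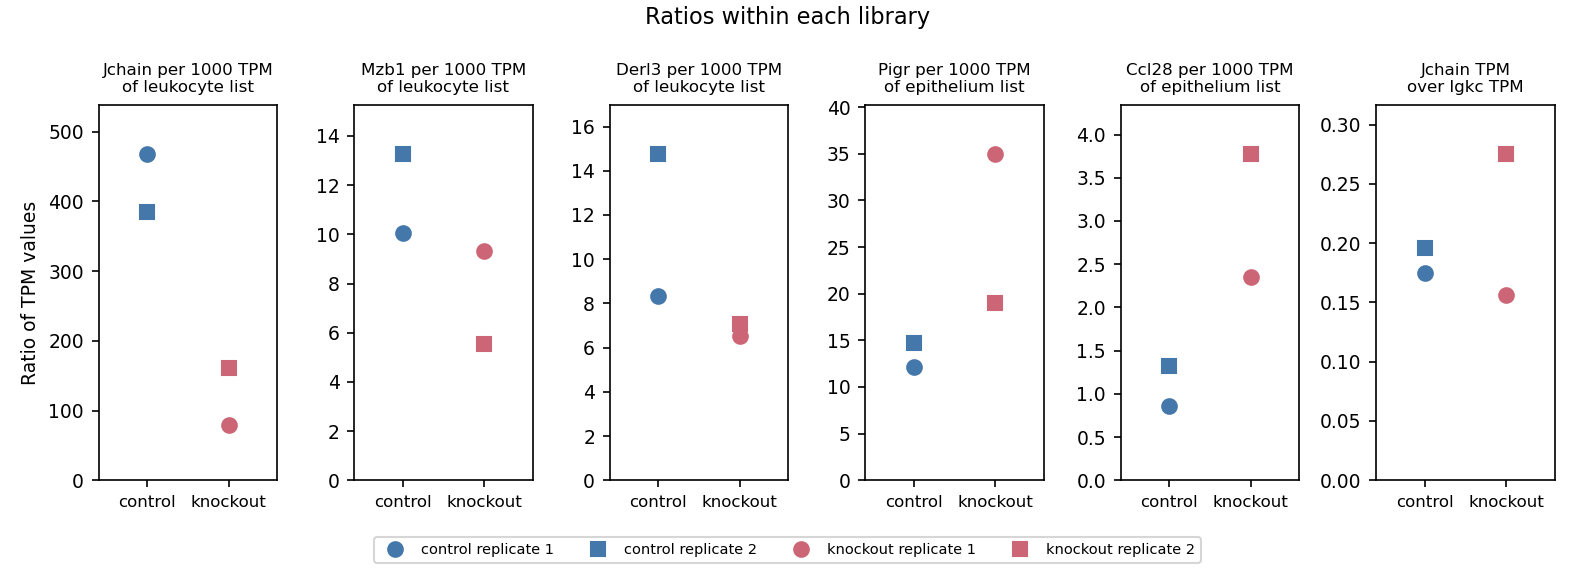
Ratios of TPM values within each library: Jchain, Mzb1 and Derl3 per 1000 TPM of the leukocyte list, Pigr and Ccl28 per 1000 TPM of the epithelium list, and Jchain over Igkc; circles are replicate 1 and squares replicate 2, and each axis starts at 0. The groups are apart in the first 5 panels and overlap in the last, where the knockouts are at 0.157 and 0.275.

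Of 20 tested plasma cell identity and secretory genes, 5 were lower at an unadjusted p under 0.05, none was higher and none passed the adjusted threshold, with a median log2 fold change of −0.19. In 7 of the 20 both knockouts lay below both controls, against 13.1% of all genes tested, and in none above, against 12.2%. Over all genes tested, 1.79% were lower and 1.22% higher at an unadjusted p under 0.05 in edgeR. These shares are the background for every list below. Of the 5, 4 are immunoglobulin constant regions (Igha, Igkc, Iglc1 and Iglc2). The other is Slamf7, a surface receptor of plasma cells, natural killer cells and some myeloid cells, at 5.27 and 8.12 CPM in the controls and 2.78 and 2.03 CPM in the knockouts. Xbp1, Prdm1 and Sdc1, which other uterine cells also transcribe, did not pass an unadjusted p of 0.05 in edgeR. Neither did Pou2af1, at 1.12 and 0.655 CPM in the controls and at 0.363 and 0.535 CPM in the knockouts. The part of other cells in these values was not tested. Xbp1, the factor that expands the secretory apparatus, was at 269.2 and 173.3 CPM and at 157.7 and 247.0 CPM. Prdm1, the repressor that fixes plasma cell fate, was at 71.2 and 70.7 CPM and at 64.5 and 43.9 CPM. Sdc1, the plasma cell marker syndecan-1 that epithelia also carry, was at 109.1 and 61.8 CPM and at 77.9 and 132.6 CPM. Slamf7, Iglc1, Iglc2, Xbp1, Prdm1, Sdc1 and Pou2af1 were named after their values were seen.

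B cell genes had no common direction, with 4 of the 8 tested below 0 and 4 above. Of the 8, 1 was lower at an unadjusted p under 0.05 and none higher, with a median log2 fold change of 0.0050. The lower one was Fcrla, an intracellular Fc receptor-like gene of B cells, at 0.835 and 0.598 CPM in the controls and 0.0907 and 0.143 CPM in the knockouts. Of the genes that define B cells, Ms4a1 gave 4 and 3 counts in the control libraries against 35 and 4 in knockouts 1 and 2. In the same order Pax5 gave 3 and 4 against 20 and 1. Both were named after their values were seen, and neither passed the low-count filter. Both were highest in knockout 1, so their higher counts come from 1 library. The part of B cells in the values of the plasma cell genes was not tested.

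Markers of other leukocytes are given beside these values. Over all 20950 genes tested, 10254 had a log2 fold change below 0. All 12 macrophage and monocyte genes had negative log2 fold changes (median −0.60). Of the 12, 5 were lower at an unadjusted p under 0.05, against 1.79% of all genes tested. The summed level of the 12 was 1170 and 1523 TPM in the controls and 856 and 834 TPM in the knockouts. Among them C1qa, a complement gene of tissue macrophages, was at 75.8 and 64.3 CPM and at 48.4 and 43.4 CPM. For the leukocyte list all 8 log2 fold changes were below 0, with a median of −0.35 and none at an unadjusted p under 0.05, while the 8 T cell genes had a median of −0.097 and summed to 30.4 and 51.5 TPM in the controls and 42.3 and 30.2 TPM in the knockouts. No gene of these lists was at 0 in all libraries. The part of leukocyte numbers in the lower Jchain was not tested.

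**Figure D4:**
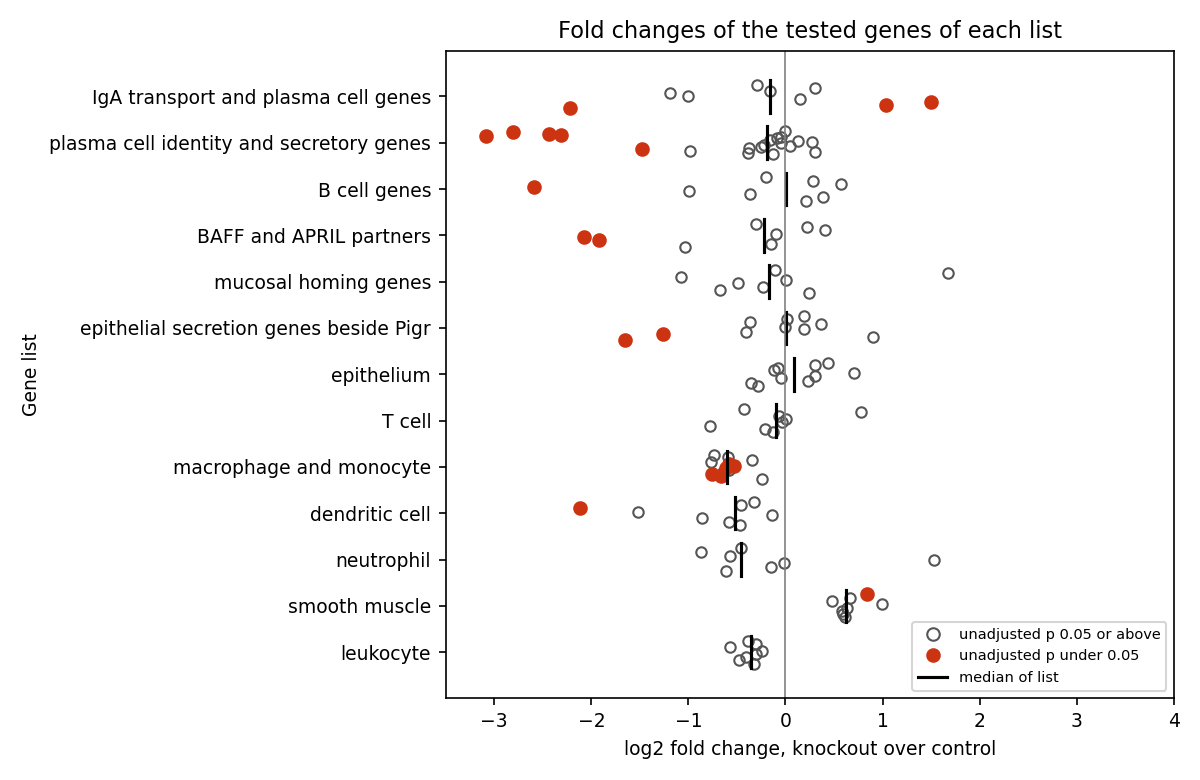
Log2 fold change, knockout over control, of each tested gene in each list; filled points have an unadjusted p under 0.05 in edgeR and the black line is the median of the list. The plasma cell list has 5 filled points, all below 0, and the macrophage list has all 12 genes below 0.

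Among the 8 tested partners of BAFF and APRIL and other survival signals, 2 were lower at an unadjusted p under 0.05 and none higher, with a median log2 fold change of −0.22. These were the cytokine genes Il5, at 0.518 and 0.456 CPM in the controls and 0.151 and 0.0713 CPM in the knockouts, and Il6, at 0.374 and 0.769 CPM and at 0.121 and 0.178 CPM. Both encode factors that sustain antibody-secreting cells, and both rest on few counts, with 18 and 16 and then 5 and 2 for Il5. Tnfrsf13b, named after its values were seen, encodes TACI, a further receptor of both ligands. It was at 3.11 and 5.02 CPM in the controls and at 1.96 and 2.00 CPM in the knockouts, with a log2 fold change of −1.04 (95% interval −2.08 to 0.0056). Cxcl12, the stromal chemokine that retains plasma cells, was at 199.7 and 216.7 CPM in the controls and at 281.8 and 269.1 CPM in the knockouts, with a log2 fold change of 0.40 (95% interval −0.14 to 0.95).

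Of 8 tested mucosal homing genes none had an unadjusted p under 0.05. Vcam1, the vascular adhesion ligand for lymphocyte integrins, was at 17.0 and 40.1 CPM in the controls and at 9.67 and 17.5 CPM in the knockouts, and the groups overlap. Of 10 tested epithelial secretion genes beside Pigr, 2 were lower at an unadjusted p under 0.05 and none higher. They were Lcn2, an iron-trapping antimicrobial protein gene, at 9.99 and 12.5 CPM and at 3.69 and 3.46 CPM, and Slpi, a protease inhibitor gene, at 2.30 and 3.70 CPM and at 0.937 and 1.57 CPM. Of the 10, 5 had a log2 fold change below 0 and 5 above. Ltf, the gene of the iron-binding defence protein lactoferrin, was at 11.3 and 64.0 CPM in the controls and at 81.6 and 58.6 CPM in the knockouts, with a log2 fold change of 0.90, and the groups overlap. Ltf was named after its values were seen.

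The genes whose pattern over the 4 libraries was nearest to that of Jchain, by Euclidean distance of centred log2 CPM among 17268 other genes that averaged 1 CPM or more, were Mmp12, Wfdc3, A430073D23Rik, Slc28a2 and Gas5, at distances from 0.38 to 0.55 log2 units. Mmp12, a macrophage elastase gene, was at 7.63 and 7.92 CPM in the controls and at 0.937 and 2.46 CPM in the knockouts. For Pigr the nearest were Fam83e, Gm42735, Gm45619, Procr and Dscam, at distances from 0.14 to 0.24. Procr, the endothelial protein C receptor gene, was at 31.3 and 46.7 CPM in the controls and at 88.4 and 58.7 CPM in the knockouts. With 4 libraries, likeness of pattern is a description only.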

How the data were processed

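RNA from whole mouse uterus was sequenced as paired ends of 150 bases. The submitters' processing notes name Trimmomatic, STAR, featureCounts and the build GRCm39; their versions, settings and annotation are not stated there. The authors deposited raw counts for 57186 genes and a table of TPM for 19991 of them, all with a total count of at least 51. TPM recomputed from counts and gene lengths matched the deposited values. Columns were matched to samples by the names in the labels.

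The counts were tested here with edgeR 4.0.16 (R 4.3.3; quasi-likelihood test), fitting group alone. TMM factors were used, and filterByExpr (minimum count 10, minimum total 15) kept 20950 genes. P-values were adjusted by Benjamini-Hochberg over these genes, threshold 0.05. The procedure was tested on simulated counts. Every pair of libraries differed beyond sampling noise (chi-square over its degrees of freedom at least 45.3). Alternatives were RLE and upper-quartile factors, no filter, a filter of 1 CPM in 2 libraries, DESeq2 1.42.0, limma-voom and limma 3.58.1 on log2(TPM + 1) and log2(TPM + 0.1), a replicate block and each library left out.

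The genes and lists were chosen with earlier results of these data known. All 10 genes are named, and of each list the 2 tested genes with the smallest p or the 2 most abundant could be named. Other genes are marked as named after their values were seen, among them Ighm, Epcam, Ms4a1 and Pax5. The result of 1 listed gene is not reported here. A ratio of Tnfrsf17 to leukocyte TPM was not computed, since the gene is absent from the TPM table.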

Additional observations from a re-analysis of the deposited data

How the results depend on the processing

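With 2 libraries per group the fold changes are imprecise, and genes near 1 CPM rest on few counts, such as 33 and 57 for Mzb1 in the controls. Jchain kept a log2 fold change below 0 in all 14 alternatives. It also passed the adjusted threshold with no filter (−2.23), with DESeq2 (−2.21), and in 3 of the 4 runs that left out 1 library, where its values over the 4 runs were −2.67 to −1.87. With these settings 1 gene of the set passed the adjusted threshold, and 0 to 1 did over the runs with 1 library left out. The number of the set lower at an unadjusted p under 0.05 was 2 with no filter and 1 to 2 with 1 library left out, Derl3 being the second. The number higher was 1 with log2(TPM + 1) and 1 with log2(TPM + 0.1), and 0 to 2 with 1 library left out. Tnfsf13 ran from −0.0033 to 0.72 and Irf4 from −0.95 to 0.68 with 1 library left out, where the direction turned at −0.0033 without control 1 for Tnfsf13 and at 0.68 without control 2 and 0.16 without knockout 1 for Irf4. When 1 library was left out, the single one of its group was assumed to vary like the others. Over all genes 1 passed in the main test, 54 with no filter, 90 with DESeq2, 0 with limma-voom, 3 and 6 on the TPM scales with pseudocounts 1 and 0.1, and 16 to 49 with 1 library left out.

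The labels do not say that a replicate number marks a shared animal or batch. The differences between replicates 1 and 2 correlated between groups at −0.51 over 13319 genes averaging 5 CPM or more. With the replicate number as a block Jchain passed the adjusted threshold (log2 fold change −2.27, 1 gene of the set), and 32 genes passed over all. With crossed pairing, chosen after seeing the data, 1 gene of the set (Jchain, −2.27) and 37 over all passed, and 2 of the set were lower at an unadjusted p under 0.05.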

Other observations

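Dendritic cell and neutrophil genes, which mark other cells that make BAFF and APRIL, were also measured. Log2 fold changes of all 8 dendritic cell genes tested were negative (median −0.52), against 10254 of all 20950 genes tested. One of the 8 was lower at an unadjusted p under 0.05, Itgax, an integrin gene of dendritic cells and some macrophages, at 17.2 and 32.1 CPM in the controls and 6.20 and 5.204 CPM in the knockouts. Its adjusted p was 0.455 in edgeR. Neutrophil genes had a median of −0.46 over 7 tested, with none at an unadjusted p under 0.05 and overlapping groups for all 7. Their summed level was 14.2 and 29.9 TPM in the controls and 11.4 and 22.6 TPM in the knockouts.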
